A study of Mus musculus with 36 samples.

Results

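A set of 9 genes that carry, relay and restrain transforming growth factor beta (TGF-beta) signals were followed through RNA-seq of mouse natural killer (NK) cells: Tgfb1, Tgfbr1, Tgfbr2, Smad2, Smad3, Smad4, Smad7, Ski and Skil. They were chosen by symbol, and all 9 were found in each of the 4 deposited tables, among 32940 genes in the table of splenic subsets and 56923 in each of the other tables. Values are TPM, a unit that divides a gene's reads by its length and scales each library to a common total, so levels can also be set beside each other between genes of one library.

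The series holds 36 libraries in 12 groups of 3. Splenic NK cells without CD27 and with CD11b were sorted from C57BL/6 mice, called WT, and from B2m-/- mice, called KO, in which loss of beta-2 microglobulin takes most MHC class I off the cell surface. Sorting by 3 inhibitory receptors gave TP cells (Ly49C, Ly49I and NKG2A all present), SP cells (Ly49I present, the other two absent) and TN cells (all absent). In 3 further experiments all cells came from WT mice. NK cells were purified from WT splenocytes after 22 hours with vehicle or with the calcium ionophore ionomycin. WT splenic NK cells were kept for 48 hours in medium or on plate-bound antibodies to NKp46 with NKG2D, or to NKp46 with DNAM-1, which are activating receptors. NK cells without CD27 and with CD11b were also taken from WT mice 10 days after subcutaneous injection of MC38 cells (a mouse colon carcinoma line) that lack B2m, with no comparison group in that table. The ages of the mice, and whether animals were pooled, are not given in the sources used here.

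TGF-beta 1 is secreted in a latent form and, once released, binds the type II receptor, which recruits and activates the type I receptor. The type I receptor phosphorylates SMAD2 and SMAD3, which join SMAD4 and enter the nucleus, where SKI and SKIL (SnoN) hold their target genes back and SMAD7 acts as a feedback inhibitor at the receptor. In NK cells TGF-beta is known as a brake on cytotoxicity and cytokine production, and as a signal that gives tumour NK cells features of tissue-resident lymphocytes.

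The labels were checked first. B2m stood at 2915.39 to 3419.55 TPM in the 9 WT subset libraries and at 73.93 to 128.47 TPM in the 9 KO libraries. All 7 NK cell markers were at or above 1 TPM in every group, with summed levels of 9869.94 to 11235.87 TPM in the subset table, 4334.75 to 7813.04 in the ionomycin table and 3763.57 to 4280.88 in tumours. RNA of other cells was seen in some groups. KO TP libraries had the highest sums of plasma cell markers (85.27 to 189.6 TPM) and neutrophil markers (47.23 to 172.99 TPM) among the subsets, where the other libraries held at most 13.12 and 3.16 TPM. Neutrophil markers also summed to 278.19 TPM in vehicle library 3 and 118.16 TPM in ionomycin library 3, against at most 2.19 TPM in the other libraries of that table. A list of monocyte and dendritic cell markers was high in all subsets, where Itgax, which mouse NK cells also express, gave 85.2% to 99.4% of the sum in a library.

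The upstream sequences of the 2 receptor genes, partners of one complex, are shown because of the ionomycin experiment described further on. Tgfbr2 passed the test there and Tgfbr1 did not, while a difference between them was not tested. The sequences are the 250 bases before the start of each gene in RefSeq (build GRCm38.p6). The set of promoter windows used here holds an entry for 5 of the 9 members. Capitals mark GGAAA (the core that NFAT factors bind), CCAAT and GGGCGG (a GC box) on either strand. Tgfbr2 lies on the minus strand (chr9:116175364-116175613) and Tgfbr1 on the plus strand (chr4:47352972-47353221), where RefSeq lists a further start that is not shown.
Tgfbr2: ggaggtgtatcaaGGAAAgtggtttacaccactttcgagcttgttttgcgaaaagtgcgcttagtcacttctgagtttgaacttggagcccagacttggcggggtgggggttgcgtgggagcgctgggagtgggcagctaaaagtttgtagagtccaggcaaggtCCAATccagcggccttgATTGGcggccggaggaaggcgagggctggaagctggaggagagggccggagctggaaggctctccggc
Tgfbr1: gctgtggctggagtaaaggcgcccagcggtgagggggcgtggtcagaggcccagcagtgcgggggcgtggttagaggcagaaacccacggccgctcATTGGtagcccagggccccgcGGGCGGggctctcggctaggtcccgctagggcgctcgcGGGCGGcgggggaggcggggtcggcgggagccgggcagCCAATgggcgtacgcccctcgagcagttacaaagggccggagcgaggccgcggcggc
The Tgfbr2 window held 1 GGAAA, 2 CCAAT and no GGGCGG, and 58.4% of its bases were G or C. The Tgfbr1 window held no GGAAA, 2 CCAAT and 2 GGGCGG at 74.8% G or C. Of 32817 mouse windows of the same length, 55.6% held GGAAA, 33.8% held CCAAT and 32.7% held GGGCGG. The Tgfb1 and Ski windows each held 5 GGGCGG and the Smad3 window held 2. These are matches of letters, and binding was not measured.

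In sorted splenic subsets the pathway was expressed at every step, in nearly the same order in each group. Smad3, a receptor-activated SMAD, was the most abundant of the 9 genes, at 161.35 to 292.81 TPM over the 18 libraries. Tgfb1, the ligand, followed at 125.59 to 178.67 TPM, and Smad4, the common partner of the activated SMADs, at 78.24 to 151.86 TPM. Tgfbr2, the ligand-binding type II receptor, lay at 67.8 to 95.85 TPM, while Tgfbr1, its type I partner, was the lowest member on average in all 6 groups, at 14.88 to 32.34 TPM. Between them stood Smad2 (33.08 to 75.24 TPM), Ski (51.25 to 69.55), Smad7 (34.22 to 64.4) and Skil (32.3 to 52.22). The ranges of Smad3 and Tgfb1 did not overlap in any group, whereas those of Smad7 and Skil overlapped in all 6. Tgfb1 and Smad4 overlapped in WT SP and KO TP but not in the other 4 groups.

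**Figure D1:**
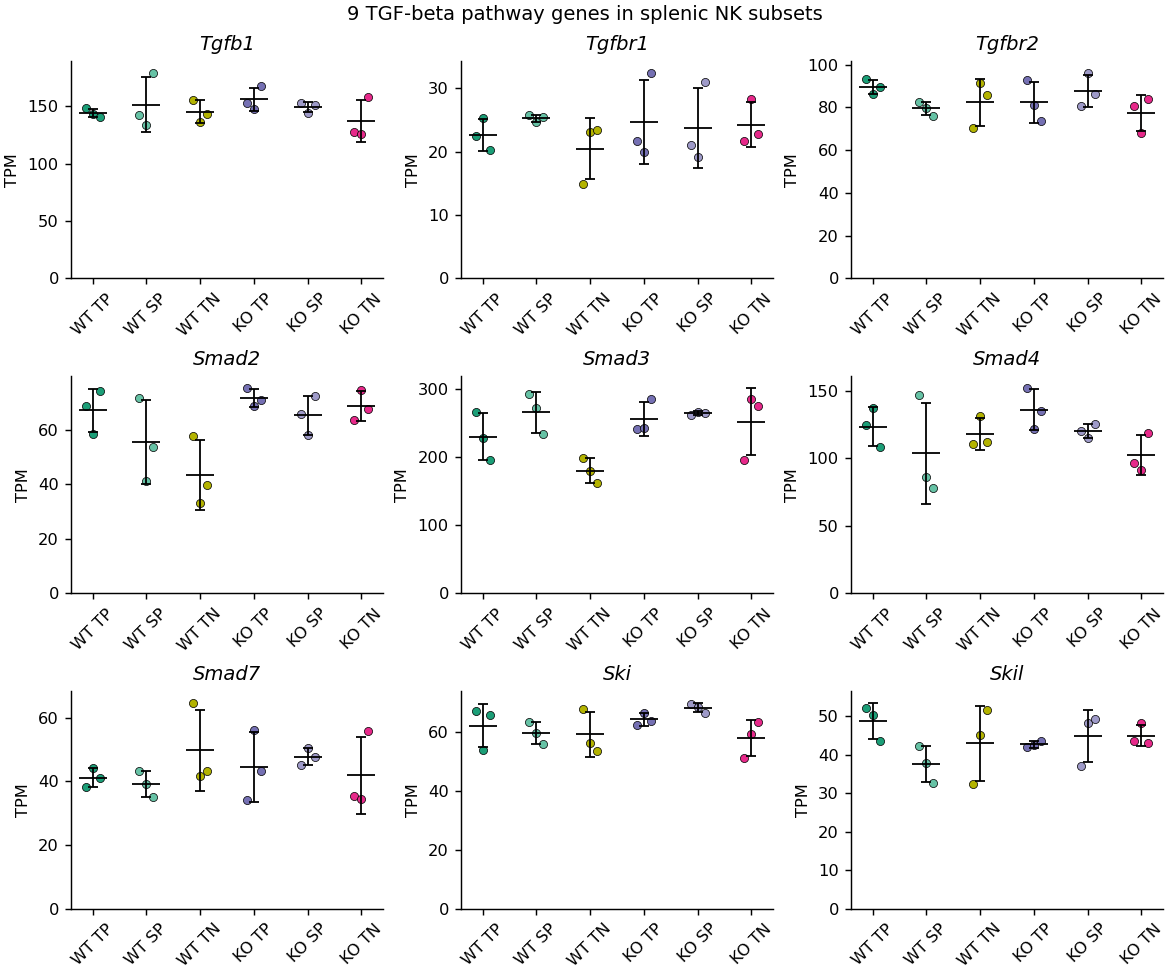
TPM of the 9 genes in each splenic NK library (y axis, linear from 0) by genotype and subset (x axis). Points are libraries, long bars are means and error bars are 1 SD of 3 libraries. Smad2 in WT TN lies below Smad2 in WT TP and in KO TN with no shared range, and Tgfb1 means differ by 1.14-fold at most.

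None of the 9 members passed the test in any of the 9 comparisons between subsets or genotypes, nor in the 2 tests of whether the subset difference changed with genotype. The test was limma on log2(TPM + 1), with Benjamini-Hochberg adjustment over the 12018 genes tested and a call at an adjusted p under 0.05. Few genes passed at all: 1.31% for WT TN against TP, 0.191% for WT SP against TP, 0.383% for WT TN against SP, 0.524% for KO TN against TP, 0.2% for KO SP against TP and 0.0416% for KO TN against SP. For KO against WT the share was 1.59% within TP cells, 1.35% within SP cells and 0.716% within TN cells, and for the differences between genotypes 0.025% (TN against TP) and 0.0166% (SP against TP). At an unadjusted p under 0.05 there were 2 members in WT TN against TP (Smad2 and Smad3), 2 in KO against WT within TN (the same genes), 1 in WT SP against TP (Skil), 1 in WT TN against SP (Smad3) and 1 in KO TN against TP (Smad4). By that looser rule 12.5% of all genes passed in WT TN against TP, 10.5% in KO against WT within TN, 7.71% in WT SP against TP, 12.1% in WT TN against SP and 6.43% in KO TN against TP. The 95% intervals of single members, not adjusted for their number, reached from -1.06 to 1.10 on the log2 scale over these 9 comparisons. Both ends belong to intervals of Smad2, in WT TN against TP and in KO against WT within TN.

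Tgfb1 had the smallest fold of the 9 members between its highest and lowest subset group means, at 1.14. Its values were 148.31, 143.31 and 140.71 TPM in WT TP, 142.61, 133.27 and 178.67 in WT SP, and 155.8, 136.7 and 143.62 in WT TN. KO TP cells held 153.06, 147.98 and 167.47 TPM, KO SP cells 152.55, 144.4 and 151.55, and KO TN cells 127.52, 125.59 and 158.11. Each KO group overlapped its WT counterpart. KO minus WT was 0.11 on the log2 scale in TP (95% interval -0.12 to 0.35) and -0.09 in TN (-0.33 to 0.15).

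Neither receptor was called between groups. Tgfbr2 was 93.06, 86.36 and 89.47 TPM in WT TP and 70.11, 91.17 and 85.76 in WT TN, with a log2 difference of -0.13 (SE 0.12, limma adjusted p = 0.7368). All 3 WT SP libraries (82.53, 79.77 and 76.06 TPM) were below all WT TP libraries, but the difference of -0.17 had an adjusted p of 0.7689 in limma, and 10.6% of all genes had groups without overlap there. Tgfbr1 was lower in all WT TN libraries (14.88, 23.17 and 23.41 TPM) than in WT SP (25.72, 24.66 and 25.39), and this difference of -0.32 was not called either (limma adjusted p = 0.618). Groups that do not overlap were found for 11.4% of all genes in WT TN against SP. In each subset library Tgfbr1 was between 0.2 and 0.439 times the level of Tgfbr2.

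Among the SMADs, the lowest mean levels of both that the receptor activates were in WT TN cells. Smad2 was 57.82, 33.08 and 39.66 TPM in WT TN against 68.91, 58.51 and 74.16 in WT TP, and WT SP libraries lay between and across them (71.76, 41.21 and 53.77). KO TN cells held 63.81, 74.82 and 67.56 TPM, above every WT TN library. The log2 difference of WT TN from TP was -0.65 (SE 0.20, limma adjusted p = 0.143), and KO minus WT within TN was 0.68 (SE 0.20, limma adjusted p = 0.1679). Both comparisons use the same 3 WT TN libraries, and neither was called. With WT TN library 1 left out, both passed in limma, at -0.87 (adjusted p = 0.0398) and 0.90 (adjusted p = 0.04819). In 12 of 13 alternative analyses of each comparison Smad2 was not called (limma adjusted p up to 0.4422 and 0.4694). Over all 13 the differences ran from -0.87 to -0.47 and from 0.51 to 0.90. In KO cells Smad2 was 75.24, 68.94 and 71.17 TPM in TP, overlapping TN. The test of that difference between genotypes gave 0.58 (95% interval -0.01 to 1.17, limma adjusted p = 0.7937), so a subset difference particular to WT cells was not shown. Non-overlapping groups made up 14.6% of all genes in WT TN against TP and 13.7% in KO against WT within TN, and Smad2 was the single member among them each time.

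Smad3 was also lowest on average in WT TN, whereas the uncalled difference of WT SP from TP was 0.22 for Smad3 and -0.30 for Smad2. Its values were 198.51, 179.87 and 161.35 TPM in WT TN and 292.81, 271.77 and 233.37 in WT SP, with no overlap. WT TP libraries held 265.59, 227.62 and 196.09 TPM, of which the lowest was under the highest WT TN value. The log2 difference of WT TN from SP was -0.56 (SE 0.14, limma adjusted p = 0.1127). KO TN libraries stood at 196.38, 285.2 and 274.68 TPM, and KO minus WT within TN was 0.47 (SE 0.14, limma adjusted p = 0.1897). Leaving out KO TN library 1, the one within the WT range, gave 0.64 with a limma adjusted p of 0.03842. That difference was not called in 12 of the 13 alternative analyses (limma adjusted p up to 0.516), over which it ran from 0.37 to 0.64. KO SP libraries were the tightest, at 261.17, 266.77 and 264.34 TPM.

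Smad4 was not called either. It ran from 78.24 to 146.67 TPM within WT SP alone. KO TN libraries (96.66, 91.76 and 119.11 TPM) were below KO TP libraries (151.86, 121.53 and 135.22), a difference of -0.41 with a limma adjusted p of 0.7277. Non-overlapping groups were 13.2% of all genes there, and the KO TP libraries are those with plasma cell and neutrophil markers, whose part in this difference was not tested.

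None of the 3 inhibitors was called between subsets or genotypes. Smad7 was 38.14, 44.07 and 41.12 TPM in WT TP and 64.4, 41.56 and 43.3 in WT TN, where library 1 stood apart, and the groups overlapped. KO SP libraries (44.94, 50.4 and 47.67 TPM) were above WT SP libraries (43.17, 39.02 and 34.91), as were those for Ski, a SMAD co-repressor (69.55, 68.38 and 66.52 against 63.26, 59.73 and 56.03 TPM). Groups did not overlap for 18.9% of all genes in that comparison, and the adjusted p in limma was 0.637 for Smad7 and 0.5821 for Ski. The same KO SP libraries of Ski were above all KO TP libraries (62.36, 66.5 and 63.89 TPM) and all KO TN libraries (51.25, 59.23 and 63.53), with a log2 difference of 0.08 for KO SP against TP and -0.23 for KO TN against SP, both at an adjusted p of 1.0 in limma. Ski was the single member without overlap in these comparisons, where 10.9% of all genes had none in KO SP against TP and 10.9% in KO TN against SP. Skil, the related co-repressor, was lower in WT SP (42.22, 37.83 and 32.69 TPM) than in WT TP (52.22, 50.43 and 43.49), with a log2 difference of -0.37 and a limma adjusted p of 0.6101. Tgfbr2 and Skil were the 2 members without overlap in that comparison.

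Of 84 other genes in 6 pathway lists, 51 could be tested in the subset table, and only a few targets and a ligand-binding protein passed. Id2, a transcriptional regulator that NK cells need and that TGF-beta can raise, was lower in WT TN (501.11, 559.97 and 639.53 TPM) than in WT TP (1075.38, 1048.87 and 1109.35). Its log2 differences were -0.93 in WT TN against TP (limma adjusted p = 7.751e-07), -0.59 in WT TN against SP (0.001079) and -0.60 in KO TN against TP (0.0002016). Itga1, which encodes an integrin of tissue-resident NK cells, was lower in TN than in TP in both genotypes (-1.63 in WT, limma adjusted p = 0.03261, and -1.90 in KO, 0.01898), at no more than 7.83 TPM in any subset library. Ltbp3, which encodes a binding protein of latent TGF-beta, was lower in KO TN (6.53, 9.89 and 2.57 TPM) than in KO TP (38.22, 22.97 and 30.97), with a log2 difference of -2.23 (limma adjusted p = 0.01404). In all, 0 of 51 rose and 2 fell in WT TN against TP, 0 rose and 1 fell in WT TN against SP, and 0 rose and 3 fell in KO TN against TP. Of all genes 1.31%, 0.383% and 0.524% were called in these comparisons. Klf11, a TGF-beta-inducible repressor, was the 1 gene that rose in KO against WT in TP (1.53, limma adjusted p = 0.004277) and in SP (1.29, limma adjusted p = 0.01738), and none fell. The share of all genes called there was 1.59% in TP and 1.35% in SP. No gene of the lists passed in the other comparisons of this table, KO against WT in TN among them. The KO TP libraries hold plasma cell and neutrophil markers, which sum to at most 1.54 and 0.39 TPM in KO TN libraries, and their part in the differences of Id2, Itga1 and Ltbp3 between KO TN and TP and of Klf11 in TP was not tested. In WT TP, where Id2 and Itga1 were also above TN, these markers summed to at most 5.89 TPM (plasma cells) and 0.0 TPM (neutrophils).

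Several of these calls did not hold over the alternative analyses. That of Itga1 was lost in 7 of 12 in WT (limma adjusted p up to 0.4422) and in 8 of 12 in KO (up to 0.2621), among them those without each KO TN and KO TP library, each WT TP library or WT TN library 1. That of Ltbp3 was lost in 4 of 13 (limma adjusted p up to 0.09351), among them those without KO TN library 3 or KO TP library 1 or 3. That of Klf11 was lost in 6 of 13 in SP (limma adjusted p up to 0.1715), among them those without library 1 or 2 of either genotype, and in 2 of 13 in TP (up to 0.1033). That of Id2 was lost in 1 of 13 in WT TN against SP (limma adjusted p = 0.2032, fitted on the compared groups alone) and in 0 of 13 in TN against TP of either genotype.

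Ionomycin was the setting in which a member passed: Tgfbr2 fell. Its values were 75.13, 108.39 and 137.33 TPM with vehicle and 35.87, 38.87 and 43.55 TPM with ionomycin. Every ionomycin library was below every vehicle library. The means were 106.95 ± 31.1 and 39.4 ± 3.87 TPM (SD, n = 3), and the log2 change was -1.38 (SE 0.28, 95% interval -2.03 to -0.73, limma adjusted p = 0.04103 over 14372 genes). It was the 1 member of 9 called, where 2.91% of all genes were called (1.25% lower), and the 1 member without overlap, where 20.1% of all genes had none. The call lies close to the threshold. It was lost in 8 of 13 alternative analyses, among them those without each ionomycin library (limma adjusted p = 0.1763, 0.1809 and 0.1598 without libraries 1 to 3), without vehicle library 2 (0.1494) or 3 (0.05718), and without both libraries that hold neutrophil markers (log2 change -1.25, 0.1775). Over all 13 the change ran from -1.61 to -1.18, always lower with ionomycin. Other markers moved with the treatment without overlap. T cell markers summed to 2.24 to 7.87 TPM with vehicle and 12.78 to 25.27 with ionomycin, with Cd4, Cd8a and Cd8b1 at 0 in all 6 libraries. Itgax was 68.25 to 169.22 TPM with vehicle and 232.01 to 400.9 with ionomycin, and Ncr1, the NK cell receptor NKp46, was 512.06 to 1072.6 and 94.0 to 140.82 TPM, while summed NK cell markers overlapped. Their part in the Tgfbr2 result was not tested. In bulk RNA, fewer cells of a type and less RNA per cell cannot be told apart.

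Tgfbr1, the type I partner, was not called (log2 change -0.06, 95% interval -1.06 to 0.93, limma adjusted p = 0.9734). It was 13.74, 13.29 and 28.9 TPM with vehicle and 15.26, 13.3 and 22.72 with ionomycin, and the groups overlapped. Within libraries the log2 ratio of Tgfbr1 to Tgfbr2 was -2.94 to -2.21 with vehicle and -1.48 to -0.91 with ionomycin, without overlap, so Tgfbr1 went from 0.123 to 0.21 times the Tgfbr2 level to 0.342 to 0.522 times. An exact permutation test of 3 against 3 libraries cannot go below a two-sided p of 0.1, so no test of this ratio was made.

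Tgfb1 was lower on average with ionomycin, but the vehicle libraries differed too widely for a call. It was 569.81, 356.04 and 173.13 TPM with vehicle and 172.08, 187.66 and 130.16 with ionomycin, and the lowest vehicle library lay inside the ionomycin range. The log2 change was -1.02 (SE 0.40, limma adjusted p = 0.2721). Without vehicle library 3, which holds neutrophil markers, it was -1.48 with a limma adjusted p of 0.02296, and without vehicle library 1 it was -0.62 (0.3819).

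The spread between vehicle libraries was wide for Smad3, Smad7, Smad4 and Ski, with coefficients of variation of 59.8%, 53.2%, 52.9% and 52.1%, and smaller for Smad2 (21.3%) and Skil (20.3%). Smad7 was 16.24, 39.64 and 55.5 TPM with vehicle and 44.55, 75.96 and 96.12 with ionomycin, a log2 change of 1.03 (95% interval -0.05 to 2.12, limma adjusted p = 0.3602) that was 0.54 without vehicle library 1. That library stood apart for several members: it held 30.66 TPM of Smad3 where vehicle libraries 2 and 3 held 115.13 and 138.13, and 15.47 TPM of Ski where they held 42.0 and 52.63. Smad3 with ionomycin was 96.01, 110.85 and 95.85 TPM, and its log2 change of 0.35 turned to -0.32 without vehicle library 1. Skil was 72.58, 104.85 and 106.9 TPM with vehicle against 63.85, 74.88 and 61.64 with ionomycin (log2 change -0.48, limma adjusted p = 0.4321). Smad2 (52.56 to 84.5 TPM) and Smad4 (50.35 to 175.15 TPM) overlapped between the groups.

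**Figure D2:**
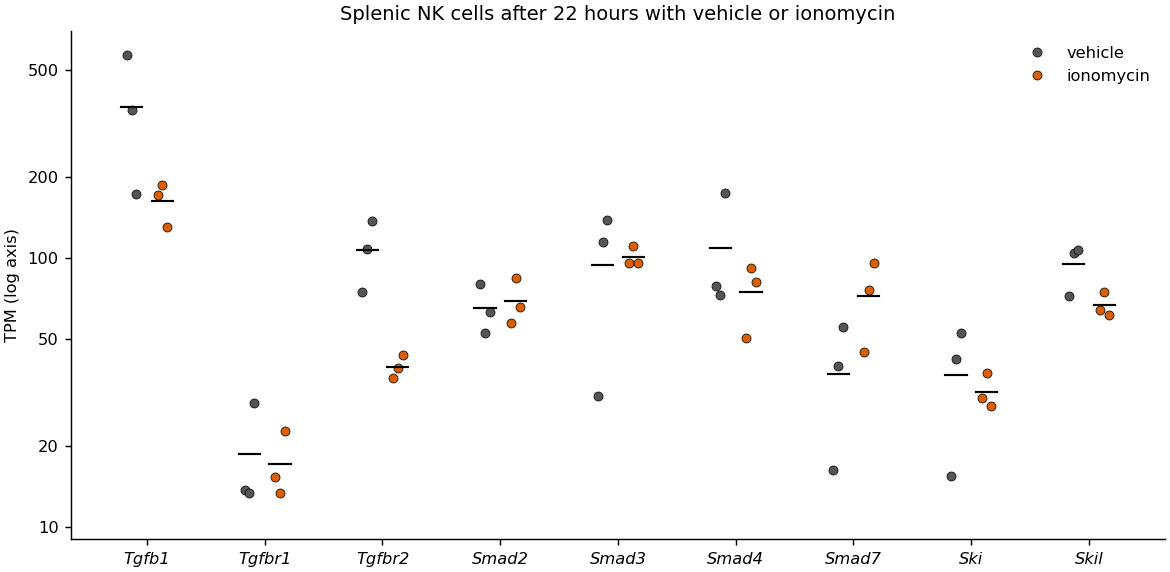
TPM of the 9 genes (y axis, log scale) in 3 vehicle and 3 ionomycin libraries (x axis, genes), with bars at the means. Tgfbr2 alone has no overlap between the groups, 35.87 to 43.55 against 75.13 to 137.33 TPM, and the vehicle points of Tgfb1, Smad3, Smad7 and Ski are widely spread.

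Of the 59 other pathway genes tested with ionomycin, 1 rose and 1 fell, where 2.91% of all genes were called. Both came from the list of 9 tested co-repressors and co-factors. Tgif1, a homeobox co-repressor of SMAD2 and SMAD3, was 14.62, 78.82 and 80.48 TPM with vehicle and 309.95, 496.72 and 390.21 with ionomycin (log2 change 3.07, SE 0.59, limma adjusted p = 0.03003). Runx3, a transcription factor that works with SMADs and in lymphocyte differentiation, was 335.44, 444.2 and 313.87 TPM with vehicle and 115.36, 77.66 and 83.72 with ionomycin (-1.98, SE 0.24, limma adjusted p = 0.005717). For neither gene did the groups overlap, which held for 20.1% of all genes. The median of the 59 genes was 0.11 on the log2 scale against -0.0044 for all genes. Without both libraries that hold neutrophil markers neither was called (3.48, limma adjusted p = 0.1109, and -2.02, 0.05896). Leaving out single libraries gave limma adjusted p up to 0.1722 for Tgif1 and 0.06316 for Runx3.

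On activating antibodies no member passed, and Tgfb1, Smad7 and Ski showed the same ordering with both antibody pairs. The title and the table column of a sample name different groups in 6 of the 9 antibody samples. The columns, which hold the values, were followed here. Column names carry a WT number that recurs in medium and in both antibody groups, and the test here did not pair by it. With the number as a block, described further on, Tgfb1 passed for NKp46 with DNAM-1. The share of all genes called was 0.431% for NKp46 with NKG2D and 0.782% for NKp46 with DNAM-1, each against the same 3 medium libraries, so these 2 comparisons are not independent. At an unadjusted p under 0.05 there were 3 members (Tgfb1, Smad7 and Smad3) in the first and 4 (these and Ski) in the second, where 15.1% and 18.0% of all genes passed.

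Smad7 was 25.14, 31.98 and 42.87 TPM in medium, 17.37, 18.94 and 14.0 with NKp46 and NKG2D antibodies, and 15.21, 20.0 and 13.35 with NKp46 and DNAM-1 antibodies. All 6 antibody libraries were below all 3 medium libraries. Members without overlap numbered 3 with NKG2D and 4 with DNAM-1 antibodies, where 17.3% and 21.1% of all genes had none. The log2 differences were -0.93 (95% interval -1.49 to -0.37, limma adjusted p = 0.1515) and -0.98 (-1.54 to -0.43, 0.106). Ski showed the same ordering at 44.95, 42.75 and 36.55 TPM in medium, 34.59, 31.4 and 22.02 with NKG2D, and 33.59, 29.3 and 21.4 with DNAM-1. Its differences were -0.50 (limma adjusted p = 0.3315) and -0.56 (0.2401).

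Tgfb1 was higher in each antibody library, at 170.53, 182.0 and 163.32 TPM in medium, 220.19, 210.48 and 246.55 with NKG2D, and 231.04, 226.24 and 250.35 with DNAM-1. The differences were 0.39 (SE 0.10, limma adjusted p = 0.1349) and 0.45 (SE 0.10, 0.07298). For 11.9% of all 13689 genes all 6 antibody libraries lay on one side of medium (6.7% below and 5.19% above), so 3 of 9 members in this arrangement is a description of these genes and not a result about the pathway. Grouped by the sample titles instead, the Smad7 differences were 0.28 and 0.09, and those of Tgfb1 were -0.0005 and 0.07.

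Smad3 was 142.2, 116.62 and 85.51 TPM in medium against 80.78, 93.11 and 62.99 with NKG2D and 76.9, 94.49 and 64.39 with DNAM-1, and the groups overlapped (-0.52 and -0.53, limma adjusted p = 0.3041 and 0.2523). Tgfbr1 was lower with DNAM-1 antibodies (18.9, 14.8 and 15.68 TPM) than in medium (21.98, 22.74 and 19.74), without overlap, at a limma adjusted p of 0.3726. Tgfbr2 differed little: 92.58, 92.44 and 85.11 TPM in medium, 78.77, 90.54 and 89.21 with NKG2D, and 87.6, 82.88 and 83.5 with DNAM-1. Its log2 difference with DNAM-1 was -0.09 (95% interval -0.34 to 0.16). Smad2, Smad4 and Skil overlapped between all groups. Between the antibody pairs 0.0146% of all genes were called and no member, none passed at an unadjusted p under 0.05, and the members' differences ran from -0.11 to 0.25.

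**Figure D3:**
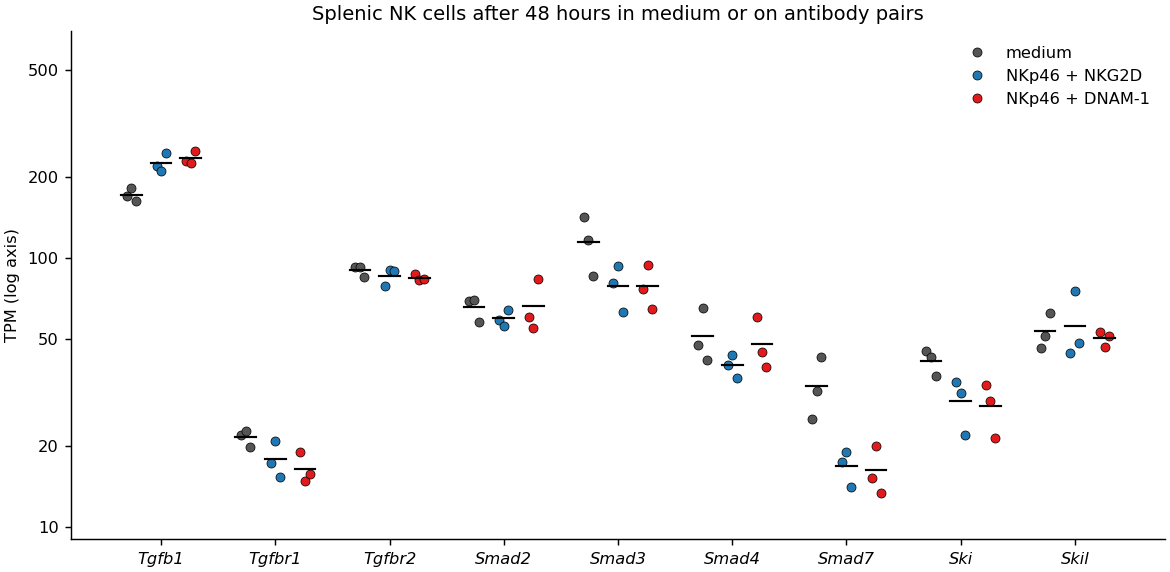
TPM of the 9 genes (y axis, log scale) in 3 medium, 3 NKp46 + NKG2D and 3 NKp46 + DNAM-1 libraries (x axis, genes), grouped by table column, with bars at the means. Smad7 and Ski points of both antibody pairs lie below medium and Tgfb1 points above it, while Tgfbr2 stays between 78.77 and 92.58 TPM.

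Of the 54 other pathway genes tested in the antibody table, 0 rose and 1 fell with each pair. Of all genes 0.431% were called with NKG2D and 0.782% with DNAM-1. Junb, an AP-1 component that TGF-beta can raise, was 468.25, 416.57 and 326.98 TPM in medium, 165.73, 148.12 and 155.66 with NKG2D and 180.66, 181.98 and 179.45 with DNAM-1. Its log2 differences were -1.35 (limma adjusted p = 0.0008131) and -1.14 (0.002954). By the sample titles they were -0.11 (0.9968) and -0.21 (0.9028). The median of the 54 genes was -0.29 with either pair, against -0.04 for all genes.

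In NK cells from tumours Tgfb1, Smad7 and Skil were the highest members. With a single group there is no test, and the levels of other tables, which were normalized separately, are set beside these as a description. Tgfb1 was 1323.15, 1072.13 and 1044.99 TPM, which is percentile 98.8 to 99.0 of the genes at or above 1 TPM in a library. Smad7 was 442.17, 391.08 and 282.5 TPM, and Skil was 272.97, 268.63 and 268.21. Over all libraries of the other tables Smad7 ran from 13.35 to 96.12 TPM and Skil from 32.3 to 106.9 TPM. Ski was 134.66, 105.86 and 112.1 TPM in tumours and 15.47 to 69.55 elsewhere.

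The receptors and transducers in tumours stood within or near the levels of other tables. Tgfbr2 was 91.72, 120.43 and 120.16 TPM and Tgfbr1 was 27.02, 22.82 and 12.61. Smad3 was 144.66, 156.83 and 135.5 TPM, Smad2 was 50.28, 38.59 and 64.81, and Smad4 was 51.91, 69.71 and 31.62. From the highest mean down, the order was Tgfb1, Smad7, Skil, Smad3, Ski, Tgfbr2, Smad2, Smad4 and Tgfbr1. The ranges of Ski and Tgfbr2 overlapped, as did those of Smad2 and Smad4, and the other neighbours did not.

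**Figure D4:**
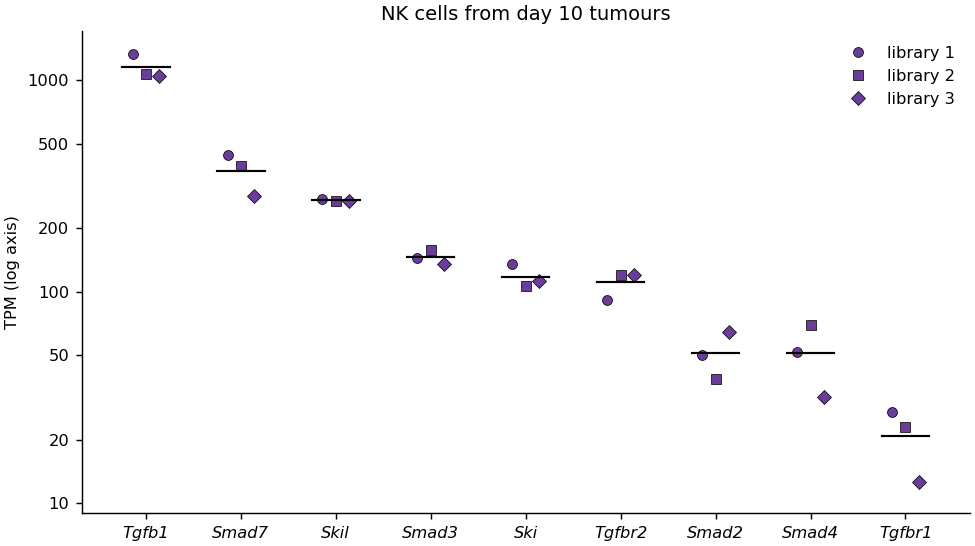
TPM of the 9 genes (y axis, log scale) in each of 3 libraries of tumour NK cells (x axis, genes from the highest mean to the lowest), with bars at the means. Tgfb1 lies above 1000 TPM in all 3 libraries, and Smad7 and Skil lie above Smad3.

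Within each tumour library Smad7 was above Smad3. Ratios are given side by side for the other tables, with no test between tables. The log2 ratio of Smad7 to Smad3 within a library was 1.05 to 1.61 in tumours, a Smad7 level 2.08 to 3.06 times that of Smad3. The highest value in the other tables was 0.004, in ionomycin library 3, where Smad7 was 1.0028 times the level of Smad3. In the subset table WT TN libraries ran from -2.087 to -1.61, with the top value in library 1, whose Smad7 stood apart. The other 5 groups lay between -3.01 and -2.092. Their highest value, in KO TP, all but met the lowest of WT TN.

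**Figure D5:**
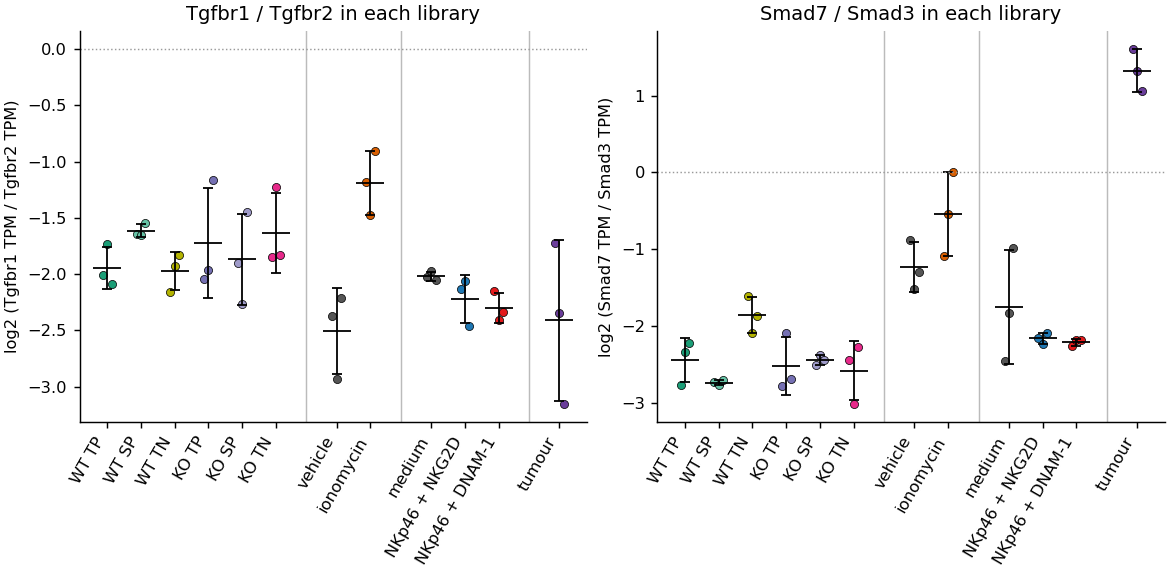
log2 ratio of Tgfbr1 to Tgfbr2 (left) and of Smad7 to Smad3 (right) in each library (y axes) by group (x axes), with means and 1 SD of 3 libraries and grey lines between separately normalized tables. Ionomycin libraries have the highest Tgfbr1 to Tgfbr2 ratios of their table (-1.48 to -0.91), and tumour libraries have Smad7 to Smad3 ratios of 1.05 to 1.61.

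The tumour libraries also held RNA of other cells. Fibroblast markers summed to 37.88, 1062.72 and 856.16 TPM, led by Col3a1 (31.04, 910.2 and 739.09). Library 1, with the lowest sum, had the highest Tgfb1, Smad7, Skil, Ski and Tgfbr1 of the group and the lowest Tgfbr2. All 5 neutrophil markers were at 0 in all 3 libraries, T cell markers summed to 4.42 to 13.97 TPM and B cell markers to at most 0.48 TPM. Monocyte and dendritic cell markers other than Itgax summed to 39.84 to 62.62 TPM, and their part in the levels of the members was not tested. Other pathway genes differed in where library 1 stood among the 3 libraries. The part of fibroblast RNA in the levels of these genes and of the members was not tested. The co-repressor Tgif1 was 373.21, 348.4 and 373.6 TPM, and Pmepa1, a TGF-beta-induced inhibitor of receptor signalling, was 235.25, 134.04 and 132.15. By contrast Tgfb3, a further ligand, was 2.62, 28.49 and 26.03 TPM, Inhba, an activin subunit, was 1.48, 31.97 and 35.67, and Ltbp4, a latency protein, was 0.52, 17.37 and 17.4, all lowest in library 1. Tgfb2 and Smad6 were listed at 0 in all 3 tumour libraries. The list of genes that TGF-beta is known to raise held both low and high levels there. By mean it ran from Itgae (0.62, 0.0 and 0.0 TPM) and Ccn2 (0.0, 1.68 and 0.0) up to Id2 (1939.31, 1986.83 and 1551.55) and Junb (2201.28, 1999.51 and 1458.54).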

How the data were processed

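RNA-seq values were deposited by the authors as TPM, with 2 decimals, in 4 tables, and per the submitters' processing notes STAR, RSEM and the GRCm39 build were used, while versions and annotation are not given in the sources used here. Per the labels' protocols, RNA with an integrity number above 7 went into a poly(A) kit. TPM keep no read counts, so depth is unknown and precision rests on the spread of 3 libraries. The number of genes above 0 was 12290 to 18096 per library. It differed with treatment, at 13904 to 14578 with vehicle against 15157 to 15483 with ionomycin, and at 13555 to 14674 in medium against 16107 to 18096 with antibodies, and its part in the results was not tested. Libraries of the subset table sum to 934292 to 948786 TPM, the others to 1000000.

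Groups follow the titles, except in the antibody table (columns). Tumour columns carry the words B2MKO and SP, which the titles do not explain. The labels call replicates biological without saying that a number is 1 mouse. Each table has 1 batch date. Limma 3.58.1 in R 4.3.3 fitted group means on log2(TPM + 1), which understates changes of low genes, for genes whose mean over a table reached 1 TPM, with a variance trend, two-sided tests, and adjustment over all genes of a comparison. All 9 members passed that filter in all tables. The model was run on simulated data with independent noise for each gene. Those data held no outlying library and no RNA of other cells, so the run cannot show how calls hold under either. In GENCODE vM21 no member shares exonic bases with another gene.

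The members and the lists were chosen with earlier results of these data known. Of the other pathway genes, up to 6 called genes per comparison with the largest change and no overlap are named. The tumour table has no comparison, so that rule did not select the pathway genes named from it. Genes of like pattern were to be named for members called in the subset table, and none was. Alternatives were another pseudocount, filters, scaling, no variance trend, a replicate block, only the compared groups, titles as groups, and leaving out libraries, with genes filtered again each time. Leaving out both libraries with neutrophil markers was added after seeing the data.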

Additional observations from a re-analysis of the deposited data

How the results depend on the processing

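The number of members called stayed the same in 198 of 210 alternative analyses of the 15 comparisons, and never changed in 10 comparisons. For ionomycin against vehicle the count of 1 went to 0 with no filter on low values (limma adjusted p of Tgfbr2 0.08054), with no variance trend (0.1276) and, in an analysis added after seeing the data, without both libraries that hold neutrophil markers (0.1775). Leaving out single libraries gave 0 to 1 there, where the 1 was Tgfbr2 without vehicle library 1 and Tgfb1 without vehicle library 3. It gave 0 to 1 for WT TN against TP (Smad2) and for KO against WT in TN (Smad2 or Smad3), and 0 for the rest. The Smad3 change with ionomycin ran from -0.32 (without vehicle library 1) to 0.75 when single libraries were left out. With groups from the sample titles, the differences of NKp46 and NKG2D from medium reversed to -0.0005 for Tgfb1, 0.071 for Smad3, 0.048 for Smad4 and 0.28 for Smad7, and that of NKp46 and DNAM-1 reversed to 0.093 for Smad7. The causes were not tested. TPM give no depth, so the smallest change that could be seen is set by the spread of 3 libraries.

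Same-numbered libraries did not meet the rule for pairing, a correlation of deviations over 0.1 in every pair: 0 of 9 pairs in WT subsets, 0 of 9 in KO subsets, 1 of 3 with ionomycin and 1 of 9 with antibodies reached it. Of the libraries, 4 of 9, 7 of 9, 5 of 6 and 7 of 9 correlated best with their own number. With the replicate number as a block, 1 member was called in WT TN against SP (Smad3, limma adjusted p = 0.03811) and 1 in NKp46 and DNAM-1 against medium (Tgfb1, 0.04298). The block left the ionomycin count at 1 and the other counts at 0. Over all genes it moved the number called from 59 to 239 (NKG2D) and from 107 to 528 (DNAM-1) against medium. In the subset table the blocks lie within a genotype. There the blocked KO against WT difference set the fitted level of KO number 1 against that of WT number 3, not the group means. Its counts (81 in TP, 75 in SP and 43 in TN, against 191, 162 and 86 without the block) therefore cannot show an effect of pairing. This fit remains 1 of the alternatives counted for KO against WT, also for Klf11.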

Other observations

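The co-repressor pair Ski and Skil changed places between tables. In the 18 subset libraries Skil was 0.475 to 0.963 times the level of Ski within a library. In all libraries of the other tables Skil was the higher of the pair, at 2.01 to 4.69 times Ski with vehicle or ionomycin, 1.03 to 2.4 times in the antibody table and 2.03 to 2.54 times in tumours. The ionomycin and antibody cells had been kept for 22 or 48 hours, and the labels name no such time for the subset or the tumour cells. Titles of the subset and tumour samples name cells without CD27 and with CD11b, and those of the other samples do not. Each table also has its own normalization and batch date, and the part of any of these was not tested.

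The pair of receptor-activated SMADs also differed between tables, but the tumour libraries were placed otherwise. They overlapped the subset range and, at their low end, that of the ionomycin table. Smad3 was 2.64 to 6.59 times the level of Smad2 in the subset libraries and 2.09 to 4.06 times in tumours, against 0.383 to 2.2 times in the ionomycin table and 0.772 to 2.04 times in the antibody table. Smad3 was below Smad2 in vehicle library 1 and in library 3 of each antibody pair.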
